A study of Mus musculus with 6 samples.

Results

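The BCL2 family genes described here are 10 genes that set the threshold of mitochondrial apoptosis, measured by RNA-Seq in whole testes of Tardbp conditional knock-out (cKO) and WT mice at postnatal day 12 (PND12). Members were the rows of the deposited gene tables whose symbol is Bcl2, Bcl2l1, Bcl2l2 or Mcl1, the 4 anti-apoptotic genes, or Bax, Bak1, Bid, Bad, Bcl2l11 or Bbc3, the 6 pro-apoptotic genes. All 10 were found among the 39253 genes of the count table, and all 10 were among the 16632 genes that passed the filter on low counts. The series holds 3 WT and 3 cKO libraries, 1 per mouse, all labelled as strain C57BL/6. By the methods of the study, the cKO genotype combines 1 floxed with 1 null allele of Tardbp, the gene of the RNA-binding protein TDP-43, and the Cre recombinase iCre under the germ cell promoter of Stra8, so that exon 3 is removed in germ cells only. Somatic cells of these mice carry the null allele too. The controls are labelled wild type, and whether they carried Cre is not given in the sources used here. Sertoli cells, Leydig cells and the other somatic cells of the testis keep the floxed allele undeleted.

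Mitochondrial apoptosis starts when the effector proteins BAX and BAK form pores in the outer mitochondrial membrane and release cytochrome c, which activates caspases. The anti-apoptotic proteins BCL2, BCL-XL (gene Bcl2l1), BCL-W (Bcl2l2) and MCL1 hold the effectors and their activators in check, and the BH3-only proteins BID, BAD, BIM (Bcl2l11) and PUMA (Bbc3) relay stress signals against them. In the mouse testis, loss of Bcl2l2 depletes germ cells and later Sertoli cells, and loss of Bax lets surplus spermatogonia survive and blocks spermatogenesis.

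The libraries held 30028685 to 43371284 estimated counts. According to the labels, batch 1 consisted of cKO 2 and cKO 3, and batch 2 of cKO 1 with the 3 WT libraries. The test was edgeR's quasi-likelihood test in a model of batch and genotype, and p values were adjusted over all 16632 genes with a threshold of 0.05. Since batch 1 holds no WT library, the genotype difference of that model is cKO 1 against the 3 WT libraries, and the difference between cKO 2 and cKO 3 and the other libraries is split between batch and genotype in a way that cannot be told apart. A model without the batch term uses all 3 cKO libraries. Levels are counts scaled to the library total (CPM) after scaling by trimmed mean of M values (TMM). Tardbp, counted over the whole gene, was at 319, 334 and 313 CPM in WT 1, WT 2 and WT 3, whereas cKO 1, cKO 2 and cKO 3 had 256, 112 and 137 CPM, below every WT library.

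With the batch term, 2 of the 10 members were higher in cKO testes, the anti-apoptotic gene Bcl2l2 and the effector Bak1. The share of all genes tested that was higher in this model was 6.91%. No member was lower, where 9.24% of all genes were lower. At an unadjusted p under 0.05, edgeR gave 4 members higher and 1 lower, where 16.5% of all genes were higher and 18.8% lower. DESeq2 with adjustment gave 4 members higher and 0 lower, where 10.2% of the genes with an adjusted p were higher and 13.7% lower. Without the batch term, 5 members were higher, namely Bcl2, Bcl2l2, Mcl1, Bak1 and Bbc3, against 17.1% of all genes, and 0 were lower, against 16.7% of all genes (1 was lower without cKO 1). The levels of 6 members lay above every WT library in every cKO library, against 25.8% of all genes, 1 member, Bax, lay below, against 27.1% of all genes, and 3 overlapped. The median log2 fold change was 0.40 over the 4 anti-apoptotic members, 0.12 over the 6 pro-apoptotic members and 0.01 over all genes tested with the batch term, and 0.51, 0.14 and 0.04 without it. The counts fell whichever WT library was left out. In the model with the batch term, 1, 0 and 0 members were higher without WT 1, WT 2 or WT 3, where the genes higher in all fell from 1150 to 328, 7 and 206. The log2 fold changes in these 3 fits were 0.69, 0.67 and 0.65 for Bak1 (0.67 with all libraries). For Bcl2l2 they were 0.45, 0.48 and 0.43 (0.45 with all libraries). Without the batch term, the 5 members higher became 0 when WT 1, WT 2 or WT 3 was left out, where 176, 0 and 140 genes were higher in all. They became 7, 3 and 2 without cKO 1, cKO 2 and cKO 3, where 30.1%, 6.92% and 4.64% of all genes were higher.

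**Figure D1:**
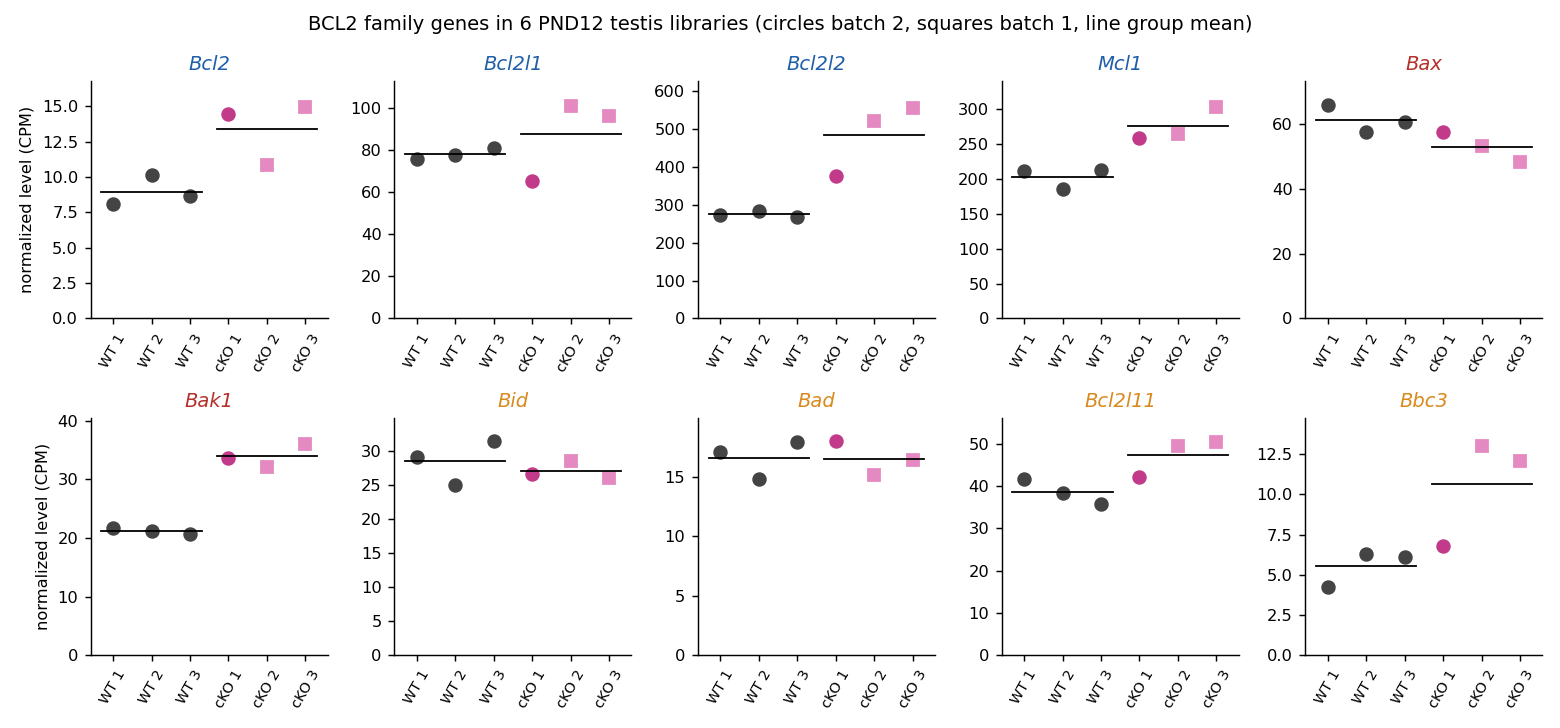
Normalized level in CPM of each BCL2 family gene in each of 6 libraries, with gene names in blue for anti-apoptotic genes, red for effectors and orange for BH3-only genes. Circles are libraries of batch 2, squares those of batch 1, and lines are group means of 3 libraries. Bcl2l2 and Bak1 lie above WT in every cKO library, while Bid and Bad overlap.

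Transcript levels of cell type markers differed between the groups. For comparison, 6.91% of all genes tested were higher and 9.24% lower with the batch term, and 17.1% and 16.7% without it. All 18 markers of early spermatocytes were lower in cKO with the batch term, with a summed level of 2172 to 2926 CPM in WT and of 515, 254 and 120 CPM in cKO 1, 2 and 3. Of 9 markers of differentiating spermatogonia, 6 were lower, and their sum was 1610 to 1872 CPM in WT and 257 to 656 CPM in cKO. Of 15 markers of Sertoli cells, 8 were higher and 1 lower, and their sum was 6969 to 8069 CPM in WT and 10287, 15684 and 16851 CPM in cKO 1, 2 and 3. Of 9 markers of undifferentiated spermatogonia, 1 was higher and 0 lower by edgeR, with 1 lower at an unadjusted p under 0.05 and 0 lower by DESeq2, and their sum was 340 to 359 CPM in WT and 308 to 467 CPM in cKO. Markers of interstitial mesenchyme summed to 1213 to 2153 CPM in WT and 3128 to 5065 CPM in cKO, with 2 of 7 higher, and those of macrophages to 116 to 141 CPM and 154 to 265 CPM, with 0 of 7 higher (1 at an unadjusted p under 0.05, 0 in DESeq2). Of the markers of Leydig cells 2 of 7 and of endothelium 1 of 5 were higher, and of peritubular myoid cells 0 of 5 passed in edgeR, at an unadjusted p under 0.05 or in DESeq2. Without the batch term, 3 of 7 markers of macrophages, 4 of 7 of interstitial mesenchyme, 3 of 5 of endothelium, 2 of 7 of Leydig cells and 9 of 15 of Sertoli cells were higher, with 0 lower in each of these lists. In that model 3 markers of undifferentiated spermatogonia were higher and 1 lower, 1 of peritubular myoid cells was lower, and 7 of differentiating spermatogonia and all 18 of early spermatocytes were lower. No marker of these lists was at 0 in any library. In RNA from whole testes, fewer cells of a type and less RNA per cell cannot be told apart, and the part of these differences in the values of the BCL2 family was not tested.

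Per kb of merged exon, Mcl1 and Bcl2l2 were the most abundant members in WT testes, at 58.2 ± 4.43 and 51.0 ± 1.62 CPM per kb (SD, n = 3). Bax followed at 33.0 ± 2.20, Bcl2l1 at 15.3 ± 0.517 and Bak1 at 8.79 ± 0.199 CPM per kb. Bcl2l11 and Bad, at 3.82 ± 0.283 and 3.71 ± 0.354 CPM per kb, overlapped in WT, as did Bbc3 and Bcl2, the least abundant, at 1.16 ± 0.234 and 0.972 ± 0.113 CPM per kb. Bid stood between these pairs at 2.92 ± 0.331 CPM per kb. The order of the 2 leading genes was that of WT in cKO 1, whereas in cKO 2 and cKO 3 Bcl2l2, at 96.6 and 103 CPM per kb, stood above Mcl1, at 75.8 and 87.0 CPM per kb. The merged exons of GENCODE vM39 stand in for the transcripts in use, so these levels are approximate between genes.

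TDP-43 binds RNA rich in UG repeats, mostly in introns, and the members differed in how many they hold. On the GRCm39 genome with GENCODE vM39, 8 of the 10 genes held at least 1 run of 6 or more UG repeats on the transcribed strand, as did 71.5% of the 15572 tested genes with a gene model. Bcl2 (chr1:106465908-106642060, minus strand), with 166940 bases of intron, held 26 runs, Bcl2l11 (chr2:127967958-128004476, plus strand) held 8, and Bcl2l1 (chr2:152622582-152673655, minus strand) and Bbc3 (chr7:16042318-16052130, plus strand) held 3 each. Bid (chr6:120862525-120894171, minus strand) held 2, and Bcl2l2 (chr14:55120778-55126551, plus strand), Bak1 (chr17:27238784-27247983, minus strand) and Bad (chr19:6918902-6929280, plus strand) held 1 each, where the median tested gene held 2. Mcl1 (chr3:95566026-95570487, plus strand) and Bax (chr7:45111015-45116325, minus strand) held none. The run of Bcl2l2 and the 3 of Bbc3 lie in exons, and that of Bak1 in an intron. Both genes that passed with the batch term thus held 1 run. Both are short, and per 10 kb of gene Bcl2l2 held 1.73 runs and Bak1 1.09, where the median tested gene held 0.745. The first bases of the longest intronic run are shown for Bak1, which was higher in cKO, and for Bcl2 and Bcl2l11, which held the most runs, with the run in capitals as DNA letters of the transcribed strand:
Bak1, chr17:27244619-27244648, minus strand: tgcatgcgcgTGTGTGTGTGTGTGTGTGTG
Bcl2, chr1:106492788-106492817, minus strand: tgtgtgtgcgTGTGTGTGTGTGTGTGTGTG
Bcl2l11, chr2:127977673-127977702, plus strand: ttctggctcgTGTGTGTGTGTGTGTGTGTG
The whole runs measured 30 bases in Bak1 and 50 bases in each of Bcl2 and Bcl2l11. A run is a match of letters and not a measured binding site.

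Among the anti-apoptotic genes, Bcl2l2, which encodes BCL-W, was the one that passed with the batch term. Its level was 274, 285 and 267 CPM in WT 1, WT 2 and WT 3, and 377, 522 and 556 CPM in cKO 1, 2 and 3. Every cKO library lay above every WT library, and cKO 2 and cKO 3 above cKO 1. The log2 fold change was 0.45 (standard error, SE, 0.0876, adjusted p = 0.0222) by edgeR in the batch model, and 0.82 (SE 0.163, adjusted p = 0.0146) without that term, and cKO 2 and cKO 3 stood 0.52 above cKO 1 in the batch coefficient of the model (adjusted p = 0.00760). By that coefficient 2 members, Bcl2l1 and Bcl2l2, were higher in cKO 2 and cKO 3 than in cKO 1, against 15.8% of all genes, and 0 were lower, against 16.2% of all genes, nor was any lower at an unadjusted p under 0.05. Bcl2l2 did not pass with the batch term when WT 1, WT 2 or WT 3 was left out (adjusted p = 0.0690, 0.0563 and 0.0637). Its exons share 594 bases with Gm20521, a protein-coding gene model of the same strand in GENCODE, so the split of reads between the pair is uncertain.

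Mcl1, whose short-lived protein restrains BAK, was at 212, 185 and 212 CPM in WT and at 259, 265 and 304 CPM in cKO 1, 2 and 3. Every cKO library was above the WT range. With the batch term edgeR gave a log2 fold change of 0.35 ± 0.119 (SE, adjusted p = 0.0830), and without it 0.44 (adjusted p = 0.0322), and DESeq2 called it with the batch term (adjusted p = 0.0429). Bcl2, the founding member of the family, was at 8.10, 10.1 and 8.65 CPM in WT and at 14.5, 10.8 and 14.9 CPM in cKO 1, 2 and 3. The lowest cKO library, cKO 2, was close to the highest WT library. The log2 fold change of Bcl2 was 0.69 (SE 0.229, adjusted p = 0.0789) by edgeR in the batch model, and 0.58 (adjusted p = 0.04998) without that term, and DESeq2 with the batch term gave an adjusted p of 0.0442.

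Bcl2l1, which encodes BCL-XL and is needed for germ cell survival in mice, was the anti-apoptotic gene whose cKO libraries disagreed. It was at 76.1, 77.8 and 81.3 CPM in WT, at 65.5 CPM in cKO 1, and at 101.0 and 96.4 CPM in cKO 2 and cKO 3. The cKO 1 library lay below all WT libraries and the other two above them. With the batch term edgeR gave a log2 fold change of -0.26 ± 0.0936 (SE, adjusted p = 0.0976), and without it 0.16 (adjusted p = 0.484), so Bcl2l1 passed in neither. The batch coefficient was 0.59 (SE 0.100, adjusted p = 0.00512), and without the batch term and cKO 1 the log2 fold change was 0.31 (adjusted p = 0.00738).

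Of the 2 effector genes, Bak1 rose and Bax did not pass the test. Bak1, whose protein resides on mitochondria, was at 21.6, 21.2 and 20.7 CPM in WT and at 33.7, 32.2 and 36.1 CPM in cKO 1, 2 and 3. All cKO libraries were far above the narrow WT range, with no difference between batches that passed the test (batch coefficient 0.02, SE 0.128, adjusted p = 0.924, edgeR). The log2 fold change was 0.67 (SE 0.118, adjusted p = 0.0193) with the batch term and 0.68 (adjusted p = 0.0123) without it. With the batch term it passed without WT 1 (adjusted p = 0.0482) but not without WT 2 or WT 3 (adjusted p = 0.0588 and 0.0599). In GENCODE the exons of Bak1 share 437 bases with Ggnbp1 on the opposite strand, which was at 4.08, 3.94 and 2.72 CPM in WT and at 8.44, 14.8 and 11.6 CPM in cKO 1, 2 and 3, with a fitted log2 difference of 1.24 (SE 0.274, adjusted p = 0.0300, edgeR) with the batch term. The library kit keeps the strand, but whether the counting used it is not given in the sources used here, and the part of Ggnbp1 reads in the level of Bak1 was not tested.

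Bax, whose protein moves to mitochondria on activation, was at 65.6, 57.5 and 60.4 CPM in WT and at 57.4, 53.2 and 48.1 CPM in cKO 1, 2 and 3. The groups lay apart, although cKO 1 was just under WT 2. With the batch term edgeR gave a log2 fold change of -0.09 ± 0.116 (SE, adjusted p = 0.603), and without it -0.21 (adjusted p = 0.205). Without the batch term and cKO 1 it was -0.29 (adjusted p = 0.0313). The log2 ratio of Bax to Bak1 CPM was 1.60, 1.44 and 1.54 in WT and 0.77, 0.73 and 0.41 in cKO 1, cKO 2 and cKO 3, lower in each cKO library.

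None of the 4 BH3-only genes passed with the batch term in edgeR, none had an unadjusted p under 0.05 and none passed in DESeq2 with that term. Bbc3, a target of p53 that encodes PUMA, was at 4.25, 6.26 and 6.12 CPM in WT and at 6.81, 13.0 and 12.1 CPM in cKO 1, 2 and 3. It was just above the WT range in cKO 1 and farther above it in cKO 2 and cKO 3. With the batch term edgeR gave a log2 fold change of 0.30 ± 0.262 (SE, adjusted p = 0.446), and without it 0.94 ± 0.292 (SE, adjusted p = 0.0429), and the batch coefficient was 0.88 (adjusted p = 0.0525). Leaving out WT 1 took the value with the batch term to 0.14, and without that term Bbc3 did not pass in any of the 5 fits that omitted a WT library, cKO 2 or cKO 3 (adjusted p = 0.102 to 0.139). Bcl2l11, which encodes BIM, was at 41.6, 38.3 and 35.9 CPM in WT and at 42.1, 49.6 and 50.4 CPM in cKO 1, 2 and 3. Its cKO 1 level was next to that of WT 1, and its log2 fold change was 0.13 (SE 0.115, adjusted p = 0.466) by edgeR in the batch model, and 0.30 (adjusted p = 0.110) without that term. Bid, which caspase 8 cleaves to carry a death receptor signal to mitochondria, was at 25.1 to 31.5 CPM in WT and 26.0 to 28.6 CPM in cKO. Bad, whose protein is held inactive by phosphorylation, was at 14.9 to 17.9 CPM in WT and 15.2 to 18.0 CPM in cKO. Both overlapped between groups, with log2 fold changes of -0.10 and 0.12 (adjusted p = 0.667 and 0.642, edgeR) with the batch term. In GENCODE, Bid shares 3059 exon bases with Bcl2l13 and Bad 914 with Gpr137, each on the opposite strand.

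**Figure D2:**
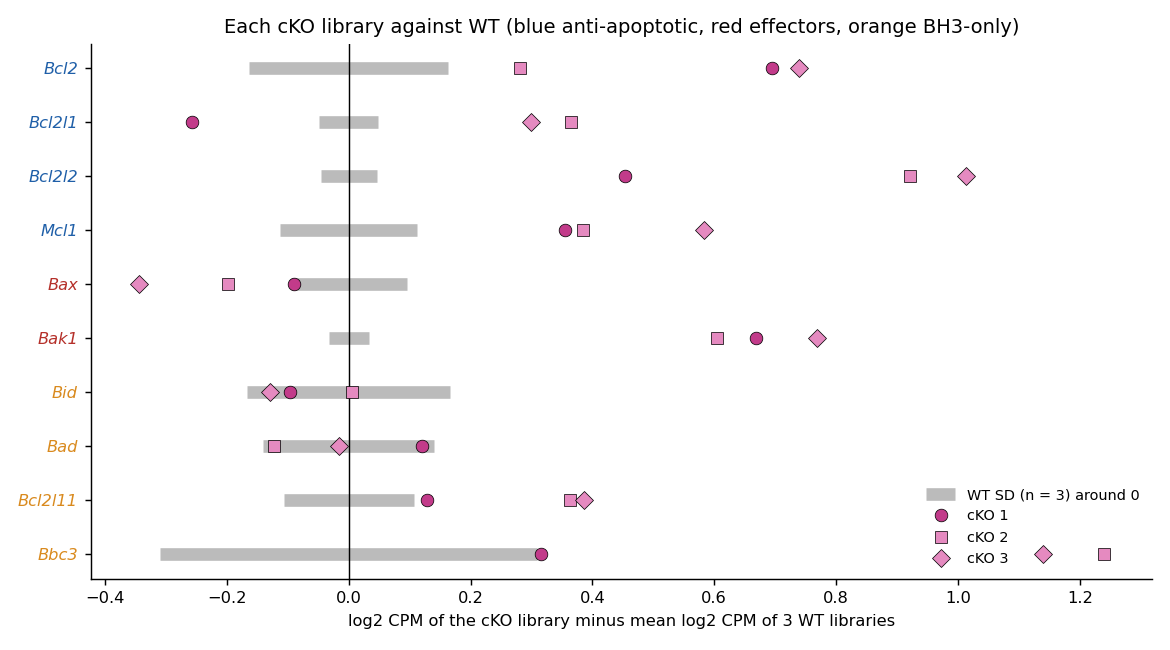
Log2 CPM of each cKO library minus the mean log2 CPM of the 3 WT libraries for each BCL2 family gene, with a grey bar of 1 SD of the WT libraries on each side of 0. Bak1 differed by 0.60 to 0.77 in the 3 cKO libraries, whereas Bcl2l1 differed by -0.26 in cKO 1 and by 0.37 and 0.30 in cKO 2 and cKO 3.

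FOXO transcription factors are known to activate Bcl2l11 and Bbc3, so RefSeq promoter windows, from 250 bases before to 50 after the start on GRCm38.p6, were searched for the FOXO core GTAAACA on both strands. The 10 members had 16 windows. The letters were found in 1 window each of Bcl2l11 and Bbc3 and in no window of the other members, and in 3.65% of all 32851 windows. They are shown in capitals in the orientation of the gene, where the match in Bbc3 reads as the reverse complement:
Bcl2l11, chr2:128125800-128125829, plus strand, match at position -227: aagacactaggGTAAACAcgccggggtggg
Bbc3, chr7:16310083-16310112, plus strand, match at position -167: tctggcgggttTGTTTACaaacaatggggt
Positions count from 0 at the first transcribed base. Of the other motifs searched on both strands, the E-box CACGTG was in 2 of the 16 windows, of Bax and Bbc3, and in 7.15% of all windows. The GC box GGGCGG was in 11 of the 16 windows, of 8 members, and in 35.7% of all windows. The UG hexamer TGTGTG was in 1 of the 16 windows, of Bbc3, and in 21.1% of all windows, and the core TGACGT of the cyclic AMP response element was in 1, of Bcl2, and in 7.51% of all windows. A match of letters is not a bound site, and neither Bcl2l11 nor Bbc3 passed with the batch term.

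Pro-apoptotic and anti-apoptotic transcripts were compared within each library, as a description. The mean log2 CPM of the 6 pro-apoptotic genes minus that of the 4 anti-apoptotic genes was -1.79, -1.87 and -1.78 in WT and -1.95, -1.99 and -2.17 in cKO 1, cKO 2 and cKO 3. All cKO values were below all WT values, and the group means differed by -0.22, with an SD of 0.0538 in WT and 0.118 in cKO. The difference was -0.15 without cKO 3, and over fewer genes it was -0.12 without Bcl2l2, -0.13 without Bax and -0.35 without Bbc3. It depends on which genes are counted. Hrk and Bok, pro-apoptotic genes outside the 10 members, were higher in cKO with the batch term, by log2 fold changes of 0.86 and 0.84. The difference with further family genes added was not computed. Against the anti-apoptotic genes, the 2 effectors differed from WT by -0.02, -0.29 and -0.45 in cKO 1, cKO 2 and cKO 3, and the 4 BH3-only genes by -0.19, -0.12 and -0.31. Summed per kb of exon, the anti-apoptotic genes made up 69.4%, 70.6% and 70.5% of the summed level of the 10 members in WT. In cKO 1, cKO 2 and cKO 3 they made up 73.5%, 77.5% and 79.3%. The lengths are of merged exons, up to 9.80 kb in Bid and 10.1 kb in Bcl2l11, so these shares are approximate. The anti-apoptotic sum was 125 ± 2.92 CPM per kb in WT and 187 ± 26.4 in cKO, and the pro-apoptotic sum 53.3 ± 2.69 and 56.0 ± 1.26 CPM per kb (SD, n = 3 each). Per kb, the anti-apoptotic sum separated the groups, while the pro-apoptotic sum overlapped, with 50.8 to 56.1 CPM per kb in WT and 54.7 to 57.2 in cKO. Most of the anti-apoptotic sum came from Mcl1 and Bcl2l2, at 58.2 and 51.0 CPM per kb in WT, whereas Bcl2 added 0.972. Bcl2l1 was lower in cKO 1, at 12.8 CPM per kb, than in WT, at 15.3. In plain CPM, without division by length, both sums were higher in every cKO library than in every WT library, at 179, 163 and 172 CPM in WT and 185, 192 and 189 CPM in cKO 1, 2 and 3 for the pro-apoptotic genes, and at 558 to 570 CPM and 716 to 971 CPM for the anti-apoptotic genes.

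Single pairs of genes did not all follow that sum. The log2 ratio of Bax to Bcl2 was 3.01, 2.50 and 2.80 in WT and 1.99, 2.29 and 1.69 in cKO 1, cKO 2 and cKO 3. That of Bax to Bcl2l2 differed from the WT mean by -0.54, -1.12 and -1.36 in cKO 1, cKO 2 and cKO 3. Both were lower in every cKO library than in every WT library, as was that of Bax to Mcl1, by -0.44, -0.58 and -0.93, whereas that of Bax to Bcl2l1 differed by 0.17 in cKO 1 and by -0.56 and -0.64 in cKO 2 and cKO 3. The ratio of Bak1 to Mcl1, a protein that holds BAK in check, was above WT in every cKO library, by 0.31, 0.22 and 0.19, and so was that of Bak1 to Bcl2l1, by 0.93, 0.24 and 0.47. The ratio of Bak1 to Bcl2l2 differed by 0.22 in cKO 1 and by -0.32 and -0.24 in cKO 2 and cKO 3, and that of Bak1 to Bcl2, by -0.03, 0.32 and 0.03, overlapped between the groups. Overlap was also found for Bcl2l11 to Bcl2 (-0.57, 0.08 and -0.35) and for Bbc3 to Mcl1 (-0.04, 0.85 and 0.56).

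**Figure D3:**
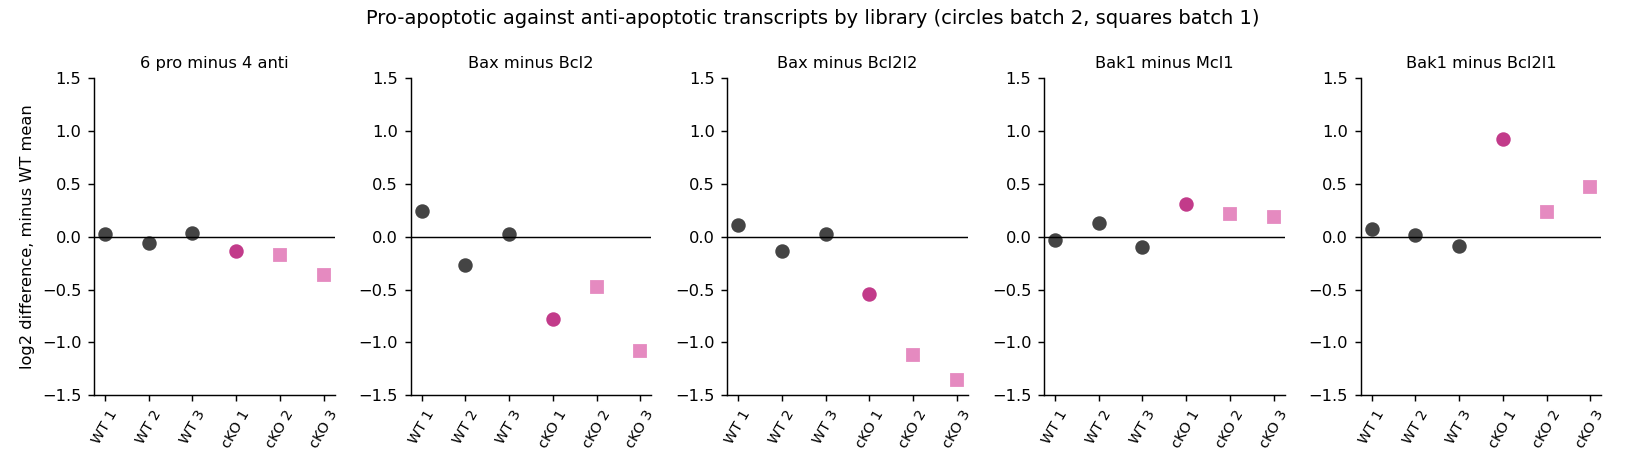
Log2 difference between pro-apoptotic and anti-apoptotic transcripts in each library, minus the mean of the 3 WT libraries, for all 10 genes and for 4 pairs. Circles are libraries of batch 2 and squares those of batch 1. The ratios of Bax to Bcl2 and to Bcl2l2 lie below WT in every cKO library, and those of Bak1 to Mcl1 and to Bcl2l1 above.

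Of the other genes of the pathway, those directly around the family are 9 tested of 15 listed further BCL2 family genes, of which 2 rose with the batch term and none fell in edgeR, none at an unadjusted p under 0.05 and none in DESeq2. Hrk, a BH3-only gene, was at 11.2, 8.59 and 12.8 CPM in WT and at 19.7, 26.8 and 27.5 CPM in cKO 1, 2 and 3, a log2 fold change of 0.86 (adjusted p = 0.0372, edgeR). Bok, which encodes an effector-like protein that can form pores without BAX or BAK, was at 43.0, 29.8 and 47.6 CPM in WT and 71.7, 72.1 and 88.2 CPM in cKO, a log2 fold change of 0.84 (adjusted p = 0.0499). Both lay above WT in each cKO library, as did 25.8% of all genes tested. The median of the list was 0.19, beside 0.01 over all genes tested, of which 6.91% were higher and 9.24% lower. The other 6, among them Bcl2a1a and Bcl2l10, did not reach the filter.

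Of 15 genes of the apoptosome and the caspases, 1 fell with the batch term and none rose in edgeR, at an unadjusted p under 0.05 or in DESeq2, with a list median of -0.08. By edgeR with the batch term, 9.24% of all genes tested were lower and 6.91% higher. Diablo, whose protein leaves mitochondria and lifts the inhibition of caspases, fell from 102, 106 and 101 CPM in WT to 64.8, 67.1 and 63.1 CPM in cKO 1, 2 and 3, a log2 difference of -0.67 (SE 0.0953, adjusted p = 0.0152, edgeR). The 3 cKO libraries were alike and far below WT. Of 8 tested caspase inhibitors, Birc5, which encodes survivin and also serves in cell division, fell from 38.0, 37.3 and 38.2 CPM in WT to 28.5, 14.5 and 14.2 CPM (log2 fold change -0.41, adjusted p = 0.0471), and none rose, where 2 were higher at an unadjusted p under 0.05 and 1 in DESeq2. Of 9 tested death receptors and adaptors, Cflar, the inhibitor of caspase 8 known as c-FLIP, rose from 68.4, 75.2 and 71.9 CPM in WT to 98.3, 109 and 117 CPM (log2 fold change 0.45, adjusted p = 0.0276), and none fell in edgeR, at an unadjusted p under 0.05 or in DESeq2.

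Of 25 tested regulators of BCL2 family genes and proteins, 2 rose and 4 fell, with a median of 0.05. Among all genes tested, 6.91% were higher and 9.24% lower with the batch term. Fbxw7, a ubiquitin ligase subunit that marks MCL1 for degradation, fell from 89.2, 96.7 and 82.0 CPM in WT to 48.5, 34.0 and 28.5 CPM in cKO 1, 2 and 3 (log2 fold change -0.88, adjusted p = 0.0175, edgeR). E2f1, a cell cycle factor that can induce BH3-only genes, fell from 43.9, 40.7 and 46.8 CPM to 24.6, 29.7 and 24.1 CPM (log2 fold change -0.83, adjusted p = 0.0214). Rps6ka1, a kinase of BAD, fell from 56.0, 52.4 and 54.8 CPM to 30.7, 46.5 and 33.5 CPM (log2 fold change -0.82, adjusted p = 0.0300), and Jun, the stress-responsive transcription factor, rose from 81.4, 62.1 and 83.6 CPM to 125, 152 and 161 CPM (log2 fold change 0.73, adjusted p = 0.0290). All 4 lay apart between the groups, where 25.8% of all genes tested lay above WT in every cKO library and 27.1% below. The summed markers of differentiating spermatogonia, early spermatocytes and Sertoli cells also differed between the groups, while those of undifferentiated spermatogonia overlapped. The part of cell types in the values of these 4 regulators was not tested.

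**Figure D4:**
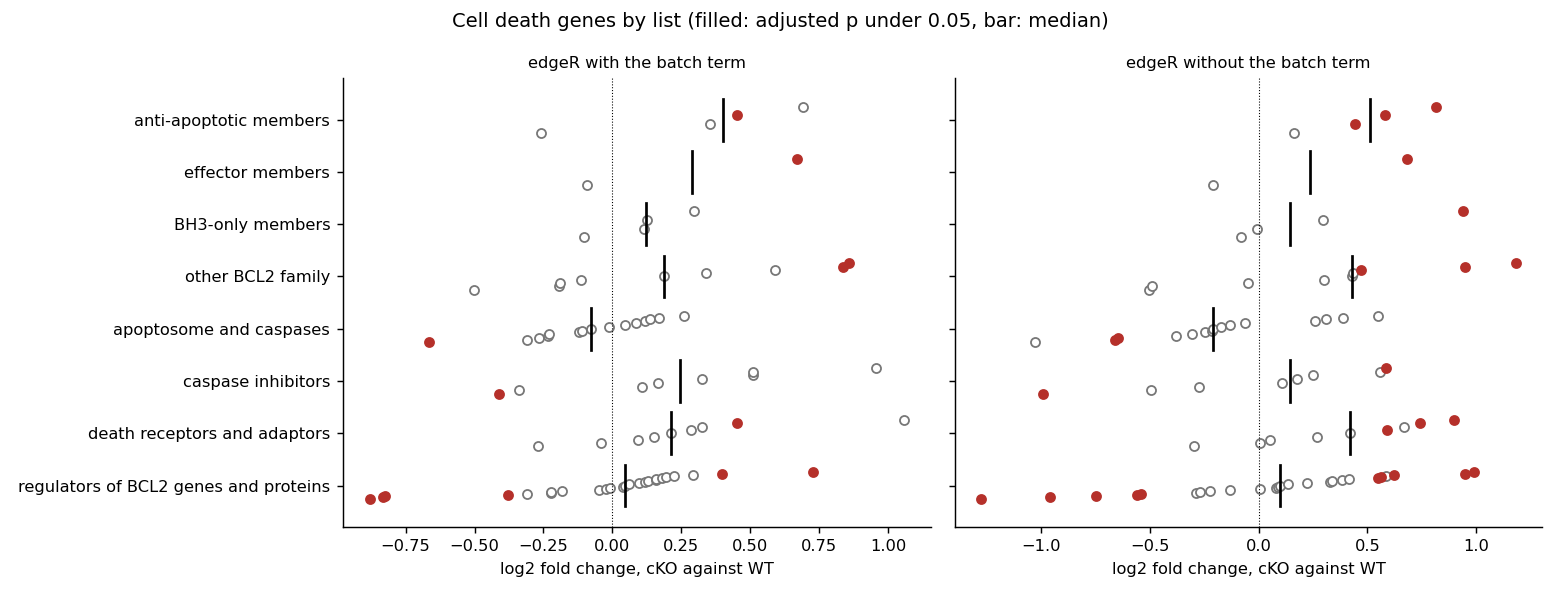
Log2 fold change of each tested gene of the BCL2 family lists and of 5 lists of related cell death genes, with the batch term on the left and without it on the right. Filled points had an adjusted p under 0.05 in edgeR and bars are list medians. The anti-apoptotic members have a median of 0.40 on the left and 0.51 on the right.

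Among 12732 genes whose log2 CPM averaged 1 or more, the pattern of Bcl2l2 over the 6 libraries was most like that of Zmym3 (Pearson r = 0.9998) and Klf12 (r = 0.9993), and that of Bak1 most like that of Rnf169 (r = 0.9990) and Acap2 (r = 0.9967). The points share 6 libraries in 2 genotypes, and the highest of many values are given as a description.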

How the data were processed

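RNA-Seq libraries were made by the authors from total RNA of whole testes with a stranded poly(A) kit. After demultiplexing (bcl2fastq 2.20) and trimming, Salmon 1.2.0 mapped the reads to NCBI's mouse transcripts, with GRCm39 as decoy and corrections of sequence and GC bias. The authors estimated the counts of each gene from its transcripts with tximport, by its bias corrected method without an offset. The values they deposited are therefore estimated counts, in which reads shared by genes are divided between them. The deposited log2 values are log2 CPM after TMM scaling by the authors, and recomputing them from the counts with a prior count of 2 differed by at most 5.15e-14, so they were not corrected for batch. Tools of the authors listed in the processing notes of the submitters include limma 3.46.0 and edgeR 3.32.1, run in R 4.0.4.

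Of the 39253 genes, the authors marked 16911 as kept, and the 16632 with at least 0.5 CPM in at least 3 libraries were tested. Rounded expected counts were tested with edgeR 4.0.16 in R 4.3.3, with TMM factors of 0.933 to 1.03, and adjusted by the Benjamini-Hochberg method over all genes tested. The test gives no SE, so the SE printed is the absolute log2 fold change divided by the square root of the F statistic. Alternatives were fits without the batch term, on batch 2 only, with limma-trend (limma 3.58.1), with DESeq2 1.42.0, with other scalings and filters, with a replicate block, and without single libraries. The library cKO 1 was left out only without the batch term, since the genotype difference of the batch model rests on it. The DESeq2 and limma-trend fits without the batch term and the use of the batch coefficient were chosen after seeing the data. The members and the gene lists were chosen with earlier results of these data known. Named genes are the members, up to 4 genes with the smallest p of each list among those that passed with the batch term, and the 2 genes most like each member that passed. Gene models came from GENCODE vM39, in which 93.6% of the tested genes matched 1 model by symbol, and sequences were read from GRCm39 and from RefSeq promoters on GRCm38.p6 with Python 3.11.15. Members were found in all tables by symbol. The fits were tested on simulated data. With the batch term, 26 of 16432 genes without a simulated genotype change passed. Of 50 genes each with a log2 change of -2, -1, 1 and 2, that fit found 36, 26, 33 and 49. Without the batch term, 21 unchanged genes passed, and 48, 28, 35 and 49 changed genes were found. Changes as small as those of Bcl2l2 and Bak1 were not simulated. The simulated batch effect was mild and few genes were changed. In the data, 15.8% of all genes passed as higher and 16.2% as lower in the batch coefficient. The counts of unchanged genes that passed therefore do not carry over to these data. Libraries held 30028685 to 43371284 counts, and counting error weighs most on Bbc3 and Bcl2, the members with the fewest counts.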

Additional observations from a re-analysis of the deposited data

How the results depend on the processing

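The direction of Bcl2, Bcl2l2, Mcl1, Bak1, Bcl2l11 and Bbc3 was positive, and that of Bax and Bid negative, in all 24 alternatives. Bak1 passed in 18 and Bcl2l2 in 17 of them. The alternatives are not independent of each other. The fit on batch 2 only and those of the batch model without cKO 2 or cKO 3 compare cKO 1 with the same 3 WT libraries as the main fit, so their estimates could hardly move. Instead of 2, the number of members higher in cKO was 5 without the batch term, 4 in DESeq2 with the batch term, 5 in DESeq2 and 4 in limma-trend without it, where 17.1%, 10.2%, 21.1% and 16.1% of all genes were higher, against 6.91%. It was 0 to 7 when single libraries were left out with or without the batch term. The highest count, 7, and the 1 member lower (0 to 1 over these fits), Bax, came from the fit without the batch term and cKO 1, where 30.1% of all genes were higher and 31.7% lower, and in which Bcl2l1 reversed to 0.31 (range over fits without 1 library -0.28 to 0.31). When single libraries were left out of the batch model, members that did not pass ran from 0.14 to 0.39 (Bbc3), 0.08 to 0.18 (Bcl2l11), 0.04 to 0.17 (Bad), -0.19 to -0.03 (Bid) and -0.13 to -0.04 (Bax). The replicate block gave 0 members higher with the batch term and 3 without it, where 3.84% and 11.6% of all genes were higher. Replicate numbers are shared by the groups, and the deviations of same-numbered libraries from their group means correlated at -0.10, -0.06 and 0.01. Since batch separates cKO 1 from cKO 2 and cKO 3, these values cannot decide whether the libraries are paired. The pro minus anti difference ran from -0.27 to -0.15 without single libraries, and was -0.34 without Bcl2l1, -0.12 without Bcl2l2, -0.13 without Bax, -0.31 without Bak1, -0.16 without Bid, -0.17 without Bad and -0.35 without Bbc3. The cause was not tested. The 3 libraries per group and batches confounded with genotype limit all of these values.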

Other observations

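Regulators and pathway genes outside the rule for named genes, chosen after their values were seen, showed larger differences in cKO 2 and cKO 3 than in cKO 1. Foxo3, a transcription factor of the FOXO family, was at 234, 208 and 223 CPM in WT and at 292, 517 and 510 CPM in cKO 1, 2 and 3, and edgeR gave a log2 fold change of 0.40 with the batch term (adjusted p = 0.0344) and 0.99 without it. Trp53, which encodes p53, was at 70.4, 72.7 and 71.1 CPM in WT and at 81.0, 122 and 127 CPM in cKO, with log2 fold changes of 0.18 (adjusted p = 0.182) and 0.62 (adjusted p = 0.0347). Mapk8, a stress kinase, was at 112, 114 and 113 CPM in WT and at 86.9, 45.7 and 42.1 CPM in cKO, and its log2 fold change with the batch term was -0.38 (adjusted p = 0.0387). Apaf1, the scaffold of the apoptosome, was at 39.9, 39.9 and 38.9 CPM in WT and at 33.6, 20.7 and 21.7 CPM in cKO, with log2 fold changes of -0.24 (adjusted p = 0.162) and -0.64 (adjusted p = 0.0425). Each of the 4 genes lay apart between the groups, where 25.8% of all genes tested lay above WT in every cKO library and 27.1% below.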
